A study of Mus musculus with 8 samples.

Results

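The MS4A genes encode a family of small membrane proteins, and 8 mouse members were followed here in bone marrow-derived macrophages (BMDMs): Ms4a4a, Ms4a4b, Ms4a4c, Ms4a6b, Ms4a6c, Ms4a6d, Ms4a7 and Ms4a8a. They were chosen by gene symbol and matched to the Ensembl identifiers of the count tables, and all 8 were found among 54532 deposited genes. The data were RNA-Seq read counts from 8 libraries in 4 groups of 2. The groups were wild-type (WT) BMDMs, BMDMs from mice lacking Trex1 (Trex1-KO), Trex1-KO BMDMs given H151, and Trex1-KO BMDMs given SN-011, each at 500 nM per the study's methods (the labels give a dose for H151 alone). Both agents are small molecules that inhibit STING. WT and untreated Trex1-KO cells received dimethyl sulfoxide (DMSO), and the treatments lasted 12 h. Per the labels the mice were 6 to 8 weeks old and their marrow was cultured for 7 days in medium conditioned by L929 cells, and per the study's methods the mice were on a C57BL/6J background. No antagonist was given to WT cells, so antagonist and genotype can be compared only within Trex1-KO cells or with untreated WT. The labels do not say whether the 2 libraries of a group came from separate animals or cultures. The study's figure legend calls them independent experiments, without saying whether these used separate animals. P-values thus measure the spread between these libraries, which may not cover the spread between animals.

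Total counts per library ranged from 11845470 to 17284863, and the 2 libraries of a group agreed across genes with a Pearson's r of 0.990 to 0.991 on the log2 scale. The share of counts from mitochondrial genes was 1.69% and 1.66% in WT, 1.30% and 1.27% in Trex1-KO, and 1.26% to 1.45% with the antagonists, so it was lower in Trex1-KO than in WT, and its part in the differences between them was not tested. Trex1 itself had 0 counts in every library, WT included. All 1147 of its exonic bases lie within exons of Atrip, where reads were not assigned to it, so the knockout could not be checked on these counts. The SN-011 libraries carry a treatment description of their own, and a batch that set them apart cannot be told apart from SN-011.

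MS4A proteins cross the membrane several times and keep both ends inside the cell. The founding members are CD20, encoded by Ms4a1 and used as a B cell marker, and the beta chain of the high-affinity IgE receptor, encoded by Ms4a2 in mast cells. Several other members are found in macrophages and microglia, where they sit beside immune receptors such as dectin-1 (Clec7a) and TREM2. Trex1 degrades DNA in the cytosol, and without it such DNA activates cGAS and STING, which leads to type I interferon and the genes that interferon induces.

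All MS4A genes studied lie in 1 cluster on chromosome 19 (GENCODE M21 annotation, mouse build GRCm38), which spanned 678.559 kb from Ms4a10 to Ms4a3, chr19:10962293-11640851. The members occupy chr19:11375523-11392790 (Ms4a4a), chr19:11404770-11427246 (Ms4a4c), chr19:11443553-11467055 (Ms4a4b), chr19:11469366-11482192 (Ms4a6c) and chr19:11516512-11531256 (Ms4a6b) on the plus strand, and chr19:11067471-11081102 (Ms4a8a), chr19:11321039-11336146 (Ms4a7) and chr19:11586604-11604849 (Ms4a6d) on the minus strand. Within it, the members form subfamilies of close copies. Over the whole alignment of their longest coding sequences, with gaps counted as differences, Ms4a4b and Ms4a4c, both 678 bases long, were identical at 91.7% of positions. Ms4a6b and Ms4a6d were identical at 80.1%, Ms4a6b and Ms4a6c at 74.7%, and Ms4a6c and Ms4a6d at 67.2%. Ms4a4a was less close to its namesakes, with 59.6% identity to Ms4a4b. All 22 pairs of members from different subfamilies lay below these, between 43.5% and 52.4%.

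Stretches just before the transcription starts were also shared within pairs, and they are shown here because the members with the largest differences between Trex1-KO and WT cells fall in these pairs. RefSeq (GRCm38.p6) listed a promoter for 7 of the 8 members, all except Ms4a6d. The 250 bases before the start are given for Ms4a4c (chr19:11407411-11407660) and Ms4a4b (chr19:11443308-11443557), both on the plus strand. The RefSeq start of Ms4a4c lay 2891 bases inside the gene as GENCODE draws it. Capitals mark runs of at least 8 aligned bases that are identical in the pair.
Ms4a4c: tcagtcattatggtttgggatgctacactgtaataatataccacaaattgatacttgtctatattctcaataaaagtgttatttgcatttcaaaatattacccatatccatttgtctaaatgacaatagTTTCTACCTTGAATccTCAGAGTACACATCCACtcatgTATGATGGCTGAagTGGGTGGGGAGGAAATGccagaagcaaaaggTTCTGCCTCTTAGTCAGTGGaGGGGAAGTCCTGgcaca
Ms4a4b: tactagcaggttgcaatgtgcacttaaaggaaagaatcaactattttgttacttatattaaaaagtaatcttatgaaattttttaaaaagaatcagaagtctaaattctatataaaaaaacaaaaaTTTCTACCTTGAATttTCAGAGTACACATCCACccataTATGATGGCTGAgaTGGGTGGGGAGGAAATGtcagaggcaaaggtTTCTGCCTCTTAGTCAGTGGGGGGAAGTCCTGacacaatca
Over the whole alignment, 68.3% of positions were identical, against 42.2% to 50.0% in the 19 pairs of member promoters not printed here, and 92 bases lay in 6 such runs close to the start. The second pair is Ms4a6b (chr19:11518309-11518558) and Ms4a6c (chr19:11469118-11469367), both on the plus strand. The RefSeq start of Ms4a6b lay 2047 bases inside the GENCODE gene.
Ms4a6b: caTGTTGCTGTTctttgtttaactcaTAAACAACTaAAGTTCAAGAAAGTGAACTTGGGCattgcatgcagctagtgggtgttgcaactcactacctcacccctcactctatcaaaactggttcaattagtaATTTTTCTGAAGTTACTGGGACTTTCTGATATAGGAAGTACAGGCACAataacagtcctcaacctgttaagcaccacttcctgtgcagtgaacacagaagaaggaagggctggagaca
Ms4a6c: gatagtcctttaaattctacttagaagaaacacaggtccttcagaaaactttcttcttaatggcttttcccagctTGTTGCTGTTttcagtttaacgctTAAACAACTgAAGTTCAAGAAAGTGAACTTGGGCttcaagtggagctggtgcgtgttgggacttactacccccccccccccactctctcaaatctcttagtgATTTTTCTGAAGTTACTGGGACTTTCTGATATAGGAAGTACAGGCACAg
Here the shared stretch sat at different distances from the starts, and over the whole alignment 45.9% of positions were identical, within the range of the other pairs. The capitals cover 91 bases in 4 runs, and the longest run held 48 bases, beginning at position -118 in Ms4a6b and -49 in Ms4a6c, where -1 is the base before the start.

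These windows were searched on both strands for letters like those bound by factors of the interferon response and of macrophages. The interferon-stimulated response element GAAANNGAAA was found in 2.98% of 32851 RefSeq promoters of the same length and in none of the 7 members. Its shorter form GAAANNGAA, which every longer match also holds, was found in 7.13% of promoters and in 3 members, Ms4a6b, Ms4a6c and Ms4a7. Ms4a6b and Ms4a6c held the same copy, GAAAGTGAA, at positions -206 and -133, inside a shared run. TTCNNNGAA, bound by STAT dimers, was in 7.02% of promoters and in no member. The core of PU.1 sites, GAGGAA, was in 23.3% of promoters and in Ms4a4b and Ms4a4c, at positions -64 and -61. The AP-1 letters TGANTCA were in 6.75% of promoters and in Ms4a7 and Ms4a8a. RefSeq listed a further window for Ms4a7, and a match in either was counted for it, while the percentages are per window. Both windows of Ms4a7 held GAAANNGAA, and the further window alone held the AP-1 letters. A match is a description of letters, and an absent match says only that these letters were not in the window.

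BMDMs expressed 7 of the 8 members, and these 7 passed the filter on low counts with at least 21 counts in every library, so that none entered the tests through 1 group alone. Ms4a7, known from macrophages and microglia, had the most reads, between 634 and 875 normalized CPM (counts scaled to a common library size). Ms4a4a ranged from 225 to 341 CPM, Ms4a6b from 170 to 357, Ms4a6d from 176 to 249 and Ms4a6c from 146 to 236. Ms4a4c, from 5.56 to 66.3 CPM, varied most between groups relative to its level. Ms4a4b, best known from T cells, was near the lower end of detection, at 1.42 to 4.53 CPM or 21 to 61 counts. Of 8 T cell markers, 7 had between 0 and 6 counts in each library, among them Cd247 with 0 in both WT libraries and 6 and 3 in Trex1-KO. The other, Cd4, had 461 and 492 counts in WT and 287 and 308 in Trex1-KO. The part of T cells in the Ms4a4b values was not tested. Ms4a8a, described in alternatively activated macrophages, was barely counted. It had 0 counts in both WT libraries, 0 and 5 in Trex1-KO, 3 and 1 with H151, and 1 and 2 with SN-011, 12 in all. A count of 0 allows a level of up to 0.221 and 0.203 CPM in the WT libraries, so no difference in Ms4a8a was detectable at this depth.

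**Figure D1:**
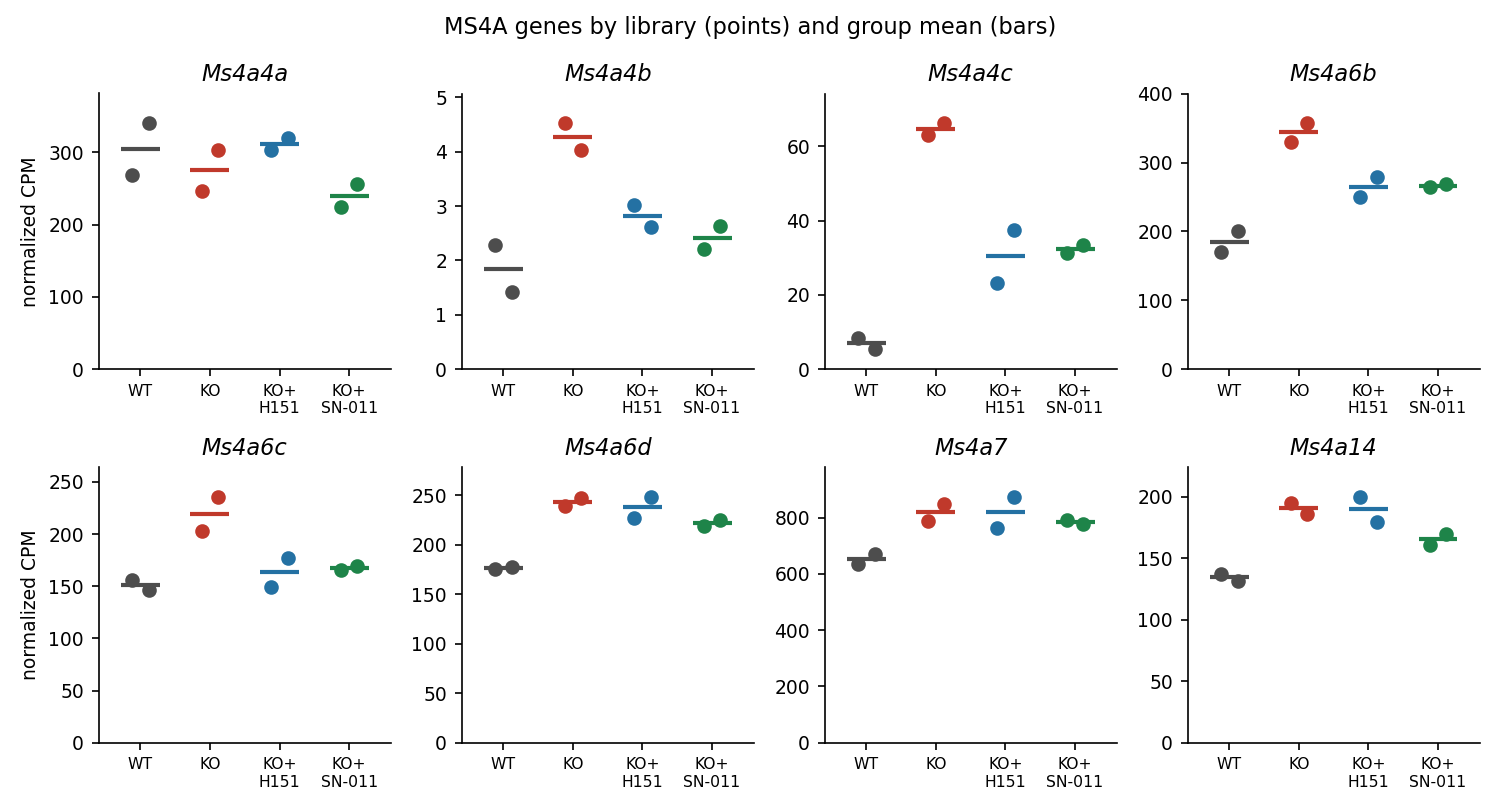
Normalized CPM (vertical axes, starting at 0) of the 7 tested MS4A members and of Ms4a14 in each library (points) with group means (bars), n = 2 per group. Ms4a4c lay between 5.56 and 8.32 CPM in WT and between 63.2 and 66.3 in Trex1-KO, whereas the Ms4a4a values of these groups overlapped.

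Between genes, levels can be compared only per length. With the exonic length not shared with another gene, the mean over groups was highest for Ms4a4a, at 338 CPM per kb, followed by Ms4a6c at 182, Ms4a7 at 173, Ms4a6d at 127, Ms4a6b at 59.4, Ms4a4c at 19.5 and Ms4a4b at 0.324. With the length of the longest coding transcript, Ms4a7 came first at 488 CPM per kb, then Ms4a4a at 338, Ms4a6d at 155, Ms4a6b at 98.9 and Ms4a6c at 95.2, and Ms4a4c and Ms4a4b stayed last. In WT cells, with unshared exons, Ms4a4a (365 ± 60.5 CPM per kb, SD, n = 2) stood above Ms4a6c (157 ± 7.07) and Ms4a7 (147 ± 5.97). The latter genes differed by less than their SDs combined, so their order was not settled. Ms4a6d (102 ± 0.733), Ms4a6b (41.5 ± 5.00), Ms4a4c (4.03 ± 1.13) and Ms4a4b (0.211 ± 0.0691) followed, each separated from its neighbours by more than its spread. In Trex1-KO cells, Ms4a4c reached 37.6 ± 1.28 CPM per kb, still below Ms4a6b at 77.0 ± 4.30.

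**Figure D2:**
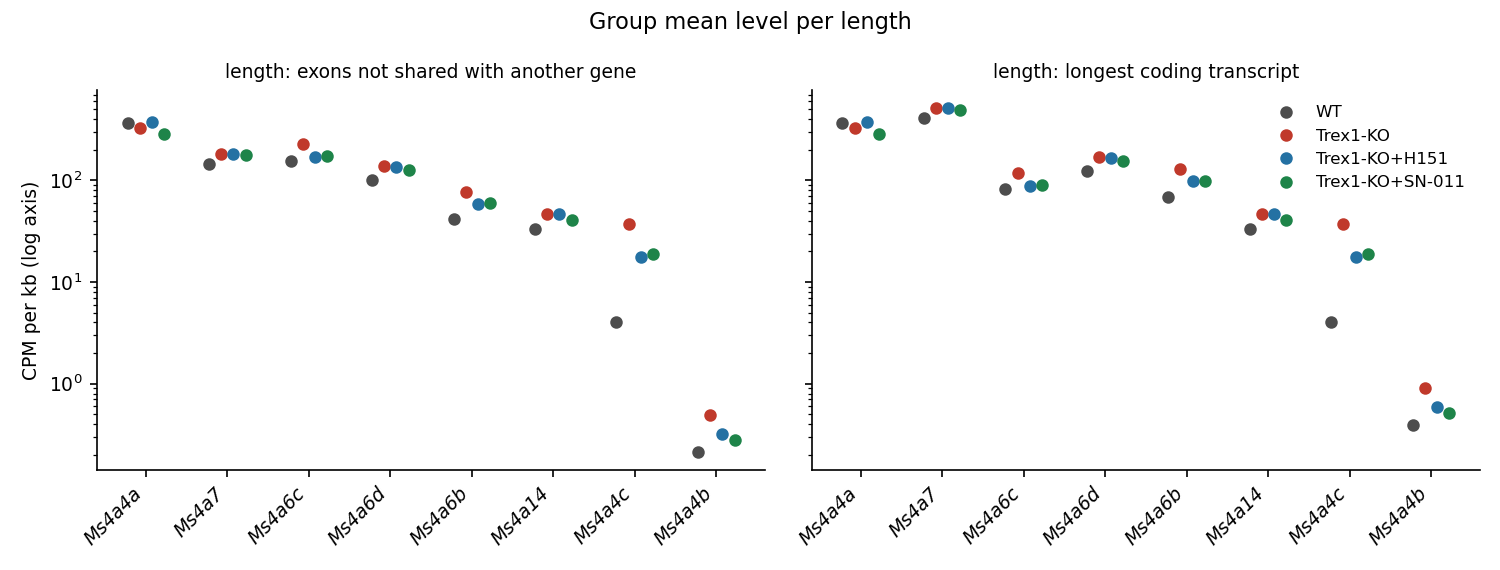
Mean level per length (CPM per kb, log axis) of the tested members and Ms4a14 in each group, with the length taken as exons not shared with another gene (left) or as the longest coding transcript (right). Ms4a4a led on the left and Ms4a7 on the right, and Ms4a4c and Ms4a4b were lowest on both.

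The first comparison asked how loss of Trex1 changed the family. In Trex1-KO against WT cells, 6 of the 7 tested members were higher at a false discovery rate (FDR) under 0.05, beside 9.27% of all 14591 tested genes called higher, and none was lower, beside 7.11%. The median log2 fold change of the 7 members was 0.54, and that of all tested genes was -0.002. Across all genes, the split between higher and lower calls depended on the scaling: 1352 and 1038 with TMM scaling (a trimmed mean of ratios between libraries), but 946 and 1598 with total counts alone. The 6 member calls held under both.

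Ms4a4c rose most. It had 8.32 and 5.56 CPM in the WT libraries and 63.2 and 66.3 in the Trex1-KO libraries. The Trex1-KO values were far above the WT values in both libraries, a 9.37-fold difference (95% interval 6.92 to 12.7, edgeR FDR = 9.7e-08). Its nearest copy, Ms4a4b, had 2.28 and 1.42 CPM in WT and 4.53 and 4.02 in Trex1-KO, which did not overlap. This was a log2 fold change of 1.21 (SE 0.28, edgeR FDR = 0.0092), and the call was lost without WT replicate 2 (FDR = 0.118) or without Trex1-KO replicate 1 (FDR = 0.058). Of the 100-base stretches in Ms4a4c transcripts, 1.66% also occur in Ms4a4b, so a small part of the reads could fit either gene, and its part in the Ms4a4b difference was not tested.

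All tested members of the Ms4a6 subfamily were also higher in Trex1-KO cells. Ms4a6b had 170 and 201 CPM in WT and 330 and 357 in Trex1-KO, a 1.85-fold difference (95% interval 1.64 to 2.09, edgeR FDR = 3.8e-06) with no overlap. Ms4a6c had 156 and 146 CPM in WT and 203 and 236 in Trex1-KO, a log2 fold change of 0.54 (SE 0.09, edgeR FDR = 0.00058). Ms4a6d, known as a partner of the receptor VSIG4, was tight within groups. It had 176 and 178 CPM in WT and 239 and 247 in Trex1-KO, a log2 fold change of 0.46 (SE 0.06, edgeR FDR = 0.00012).

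Of the exonic bases of Ms4a6c, 53.1% lie within BE692007, a transcript on the opposite strand. The counts were not assigned by strand and reads within both genes were left out, so what remains of each could include reads of the other. BE692007 had 564 and 701 counts in WT and 846 and 1023 in Trex1-KO, a log2 fold change of 0.56 (SE 0.10, edgeR FDR = 0.00098). Ms4a6c and BE692007 cannot be told apart as the source of this difference.

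Ms4a7, the member with the most reads, had 634 and 672 CPM in WT and 788 and 849 in Trex1-KO. The groups did not overlap, but the difference was small, 1.25-fold (95% interval 1.13 to 1.39, edgeR FDR = 0.0037), and the call was lost without WT replicate 1 (FDR = 0.0648). Ms4a4a, a marker of alternatively activated macrophages, was the exception. It had 269 and 341 CPM in WT and 247 and 304 in Trex1-KO. These values overlapped, with a log2 fold change of -0.15 (95% interval -0.38 to 0.09, edgeR FDR = 0.44), so a rise above 0.09 lay outside the interval.

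Summed over all Ms4a genes, the family held 1615 ± 87.3 CPM in WT, 2161 ± 127 in Trex1-KO, 2020 ± 141 with H151 and 1881 ± 30.6 with SN-011 (SD, n = 2 each). Ms4a4a made up 18.8% of that total in WT and 12.7% in Trex1-KO, whereas Ms4a6b made up 11.5% and 15.9%, and Ms4a4c 0.434% and 3.0%. Ms4a7 stayed the largest share, at 40.4% and 37.9%. These shares were summed over genes of different length and describe reads, not molecules.

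The second comparison asked what the STING antagonists did in Trex1-KO cells. Both comparisons use the same untreated Trex1-KO libraries. With H151, 3 of the 7 tested members were lower, beside 1.84% of all tested genes called lower, and none was higher. With SN-011, 3 of the 7 were lower, beside 2.22% of all tested genes, and none was higher. In both, the members were Ms4a4c, Ms4a6b and Ms4a6c. The median log2 fold change of the members was -0.38 with H151 and -0.37 with SN-011, against 0.001 and 0.009 for all tested genes.

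Ms4a4c had 23.3 and 37.4 CPM with H151 and 31.2 and 33.5 with SN-011, all below the 63.2 and 66.3 of the untreated Trex1-KO libraries and above the 8.32 and 5.56 of WT. It was 2.12-fold lower with H151 (log2 fold change -1.08, SE 0.17, edgeR FDR = 0.0023). With SN-011 it was 2.00-fold lower (log2 fold change -1.0, SE 0.17, edgeR FDR = 0.0038). Without SN-011 replicate 1 this call was lost, and the log2 fold change was -0.96. H151 replicate 1 was the lowest Ms4a4c value among treated libraries, and without it the log2 fold change with H151 was -0.79.

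Ms4a6b had 250 and 279 CPM with H151 and 264 and 269 with SN-011, all between the WT and untreated Trex1-KO values. The log2 fold changes were -0.38 with H151 (SE 0.08, edgeR FDR = 0.0238) and -0.37 with SN-011 (SE 0.08, edgeR FDR = 0.028). Ms4a6c had 149 and 177 CPM with H151 and 165 and 169 with SN-011, against 203 and 236 untreated. Its log2 fold changes were -0.43 (SE 0.09, edgeR FDR = 0.0171) and -0.39 (SE 0.09, edgeR FDR = 0.0285), and those of BE692007 were -0.40 in both (edgeR FDR = 0.0443 and 0.0423). These calls lay near the threshold. For Ms4a6b with H151 the call was lost without Trex1-KO replicate 2 (FDR = 0.191), H151 replicate 1 (0.144), SN-011 replicate 1 (0.0600) or SN-011 replicate 2 (0.0607), and when only the 2 groups were fitted (0.0533). For Ms4a6c with H151 it was lost without Trex1-KO replicate 2 (FDR = 0.198) or H151 replicate 1 (0.112), and with only the 2 groups (0.10). With SN-011, both genes lost their calls without Trex1-KO replicate 2 (FDR = 0.132 for Ms4a6b and 0.181 for Ms4a6c), SN-011 replicate 1 (0.300 and 0.319) or SN-011 replicate 2 (0.203 and 0.192).

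Ms4a4b gave larger but less certain differences. It had 3.01 and 2.62 CPM with H151 and 2.21 and 2.63 with SN-011, below both untreated libraries at 4.53 and 4.02, with log2 fold changes of -0.60 (SE 0.27, edgeR FDR = 0.49) and -0.83 (SE 0.27, edgeR FDR = 0.19). The other members did not pass the test with either antagonist. Ms4a7 had 763 and 875 CPM with H151 and 791 and 778 with SN-011, which overlapped the untreated 788 and 849. The intervals of its log2 fold changes were -0.14 to 0.15 with H151 and -0.20 to 0.08 with SN-011. Ms4a6d had 227 and 249 CPM with H151, overlapping the untreated 239 and 247, and 219 and 225 with SN-011, below them. Its intervals were -0.16 to 0.10 and -0.27 to -0.003 (edgeR FDR = 0.40 with SN-011). Ms4a4a had 303 and 319 CPM with H151 and 225 and 256 with SN-011, and both overlapped the untreated 247 and 304. Whether Ms4a4c, Ms4a6b and Ms4a6c differed from Ms4a6d and Ms4a7 in their response was not tested.

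**Figure D3:**
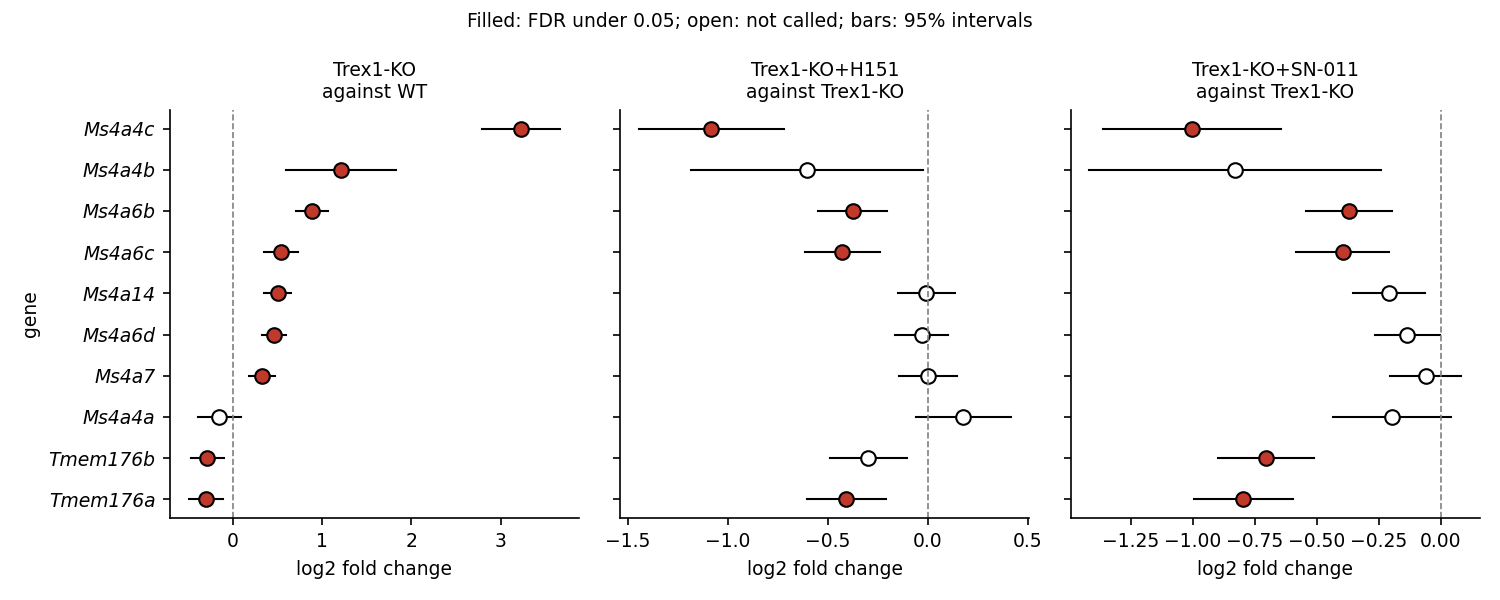
Log2 fold changes (horizontal axes, scaled separately) of the tested members, Ms4a14, Tmem176a and Tmem176b with 95% intervals in 3 comparisons, filled where the FDR was under 0.05. Ms4a4c, Ms4a6b and Ms4a6c were higher in Trex1-KO than in WT and lower with either antagonist, while the points of Ms4a6d and Ms4a7 were filled in the first comparison only.

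Set directly against each other, SN-011 and H151 gave no member past the threshold with edgeR's quasi-likelihood test, beside 0.158% of all tested genes called. At an unadjusted p under 0.05 there was 1 member, Ms4a4a, which also passed with edgeR's exact test (FDR = 0.0181) and not with DESeq2. Ms4a4a had 225 and 256 CPM with SN-011 and 303 and 319 with H151, with no overlap and a log2 fold change of -0.37 (95% interval -0.61 to -0.14, edgeR FDR = 0.36). With the replicate number as a block its FDR was 0.0292. For Ms4a4c the difference between the antagonists was 0.08 (95% interval -0.30 to 0.46), for Ms4a6b 0.01 (-0.17 to 0.18), and for Ms4a6c 0.03 (-0.16 to 0.22). A p that misses the threshold does not show that the antagonists act alike.

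The third comparison set the treated Trex1-KO cells beside WT, whose libraries also serve the first comparison. With H151, 4 of the 7 tested members were above WT, beside 6.79% of all tested genes called higher. With SN-011, 4 of the 7 were above WT, beside 6.18% of all tested genes. The members were Ms4a4c, Ms4a6b, Ms4a6d and Ms4a7 in both. With total counts alone in place of TMM, all genes split into 715 higher and 998 lower calls with H151 and 703 and 1042 with SN-011, against 990 and 736 and 902 and 812 with TMM.

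Ms4a4c was still 4.43-fold above WT with H151 (95% interval 3.22 to 6.09, edgeR FDR = 1.7e-05) and 4.68-fold with SN-011 (3.41 to 6.41, edgeR FDR = 1.1e-05). Ms4a6b was 1.43-fold and 1.44-fold above WT. Ms4a6d was 1.35-fold above WT with H151 and 1.25-fold with SN-011, the latter lost without SN-011 replicate 2 (FDR = 0.0506). Ms4a7 was 1.25-fold and 1.20-fold above WT. Its calls were lost without WT replicate 1 (FDR = 0.0842 with H151 and 0.200 with SN-011), and with SN-011 also without WT replicate 2 (0.0510), SN-011 replicate 1 (0.145) or SN-011 replicate 2 (0.123), and with total counts alone (0.0553).

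The remaining members did not pass against WT. For Ms4a6c the log2 fold change was 0.12 with H151 (95% interval -0.07 to 0.31) and 0.15 with SN-011 (-0.04 to 0.34). For Ms4a4b it was 0.61 (-0.05 to 1.26) and 0.38 (-0.28 to 1.04), and these values moved to 0.96 and 0.74 without WT replicate 1 and to 0.29 and 0.062 without WT replicate 2. Ms4a4a with SN-011 lay below both WT libraries, with a log2 fold change of -0.34 (95% interval -0.58 to -0.11, edgeR FDR = 0.062). It was past the threshold in 10 of 16 alternatives, with FDR values from 6.3e-07 to 0.48, among them the fits without WT replicate 1 (0.0158), Trex1-KO replicate 1 (0.0201), Trex1-KO replicate 2 (0.0236), H151 replicate 1 (0.0255) and H151 replicate 2 (0.0244). It rested on single libraries: the log2 fold change was -0.52 without WT replicate 1 and -0.17 without WT replicate 2 (FDR = 0.48).

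Of 15 further genes of the CD20-like family listed with the members, 14 had an identifier in the files and 3 passed the filter on low counts. Ms4a14, next to Ms4a7 in the cluster, had 137 and 132 CPM in WT and 195 and 186 in Trex1-KO, a log2 fold change of 0.50 (SE 0.07, edgeR FDR = 0.00014). It had 200 and 180 CPM with H151 and 161 and 170 with SN-011, and neither differed from Trex1-KO past the threshold (edgeR FDR = 1.00 and 0.18). Ms4a14 was above WT with SN-011 by a log2 fold change of 0.30 (edgeR FDR = 0.0107), a call lost without WT replicate 1 (FDR = 0.0574), WT replicate 2 (0.112) or SN-011 replicate 2 (0.139). Ms4a1, Ms4a2, Ms4a3, Ms4a5, Ms4a10, Ms4a12, Ms4a13, Ms4a15, Ms4a18 and Ms4a20 had between 0 and 3 counts in each library, and Ms4a4d between 1 and 11.

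Tmem176a and Tmem176b, family relatives on chromosome 6 that are linked to dendritic cell maturation, were lower in Trex1-KO than in WT, and both were lower with SN-011 than in untreated Trex1-KO cells. Tmem176a had 131 and 104 CPM in WT, 94.3 and 96.1 in Trex1-KO, 72.0 and 71.6 with H151 and 55.5 and 54.0 with SN-011. The log2 fold changes of Tmem176a were -0.30 in Trex1-KO against WT (edgeR FDR = 0.0338), -0.41 with H151 (edgeR FDR = 0.0339) and -0.80 with SN-011 (edgeR FDR = 0.00022). Tmem176b had 255 and 203 CPM in WT, 183 and 194 in Trex1-KO, 157 and 150 with H151 and 115 and 116 with SN-011, with log2 fold changes of -0.28 (edgeR FDR = 0.0445), -0.30 (edgeR FDR = 0.15) and -0.71 (edgeR FDR = 0.00047). The differences between Trex1-KO and WT rested on WT replicate 1, without which they were -0.14 (FDR = 0.353) for Tmem176a and -0.12 (FDR = 0.425) for Tmem176b. Those calls were also lost without either Trex1-KO library (FDR = 0.110 and 0.0868 for Tmem176a, 0.184 and 0.0642 for Tmem176b), without SN-011 replicate 1 (0.0624 and 0.0805) and, for Tmem176b, without SN-011 replicate 2 (0.0614). The call of Tmem176a with H151 was lost without any 1 of the Trex1-KO, H151 or SN-011 libraries. Its log2 fold change stayed between -0.42 and -0.39 when 1 library was left out.

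The cluster also holds and borders other genes. Of 35 annotated genes in it, 13 were tested: 8 Ms4a genes, of which 7 were higher in Trex1-KO than in WT, and 5 others, of which 2 were higher, beside 9.27% of all tested genes. Both others fell with each antagonist, beside 1.84% of all tested genes called lower with H151 and 2.22% with SN-011. They were BE692007, described above, and AW112010, at 85.3 kb from the start of the cluster. The latter is annotated as a non-coding RNA and is known to be induced in activated macrophages. AW112010 had a log2 fold change of 1.81 in Trex1-KO against WT (edgeR FDR = 2.1e-06), -0.78 with H151 (edgeR FDR = 0.0088) and -0.63 with SN-011 (edgeR FDR = 0.0344). Of the 5 tested genes nearest to the cluster on each side, 2 before it, Ccdc86 (0.94) and the peptide transporter gene Slc15a3 (0.45), and 1 after it, the syntaxin gene Stx3 (0.49), were higher in Trex1-KO, and the rest did not pass. Ccdc86 was also lower with H151 (-0.59, edgeR FDR = 0.0141) and SN-011 (-0.56, edgeR FDR = 0.0215), and Slc15a3 with SN-011 (-0.27, edgeR FDR = 0.0321). Genes called higher were thus interspersed with genes that did not pass the test, such as Ms4a4a within the cluster and Prpf19 and Patl1 outside it.

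**Figure D4:**
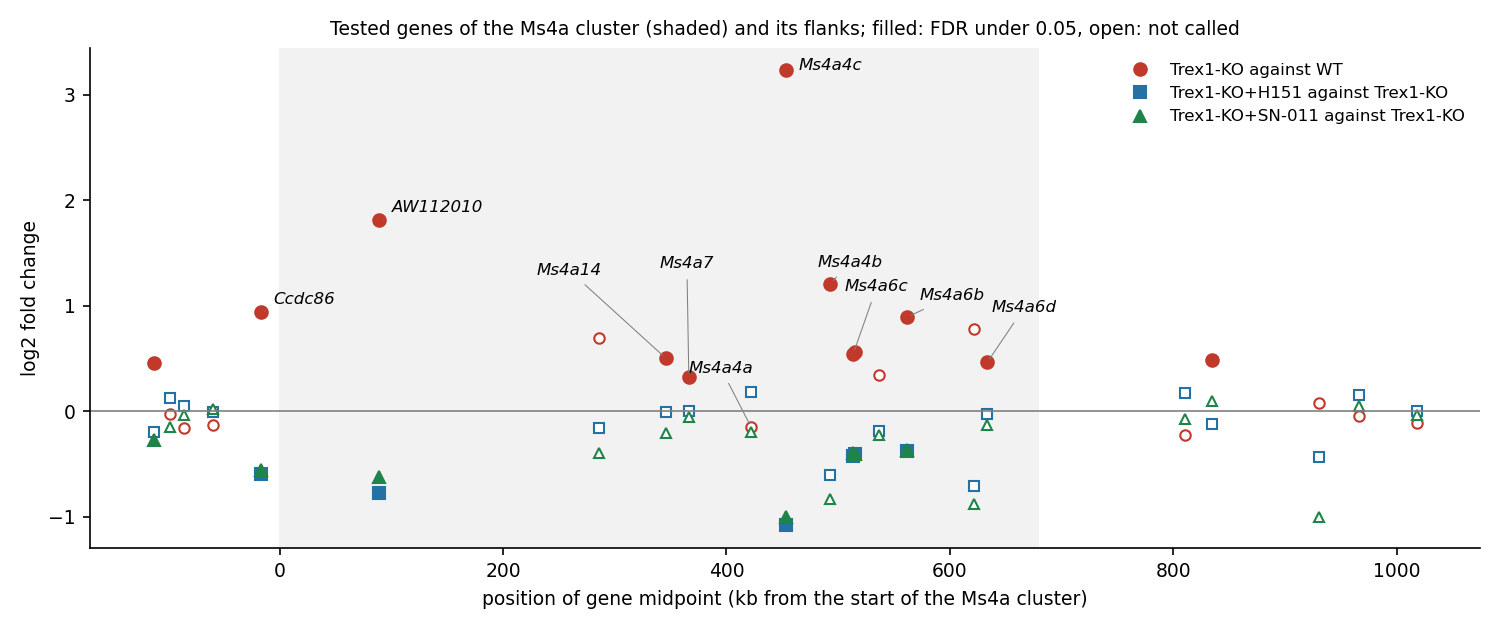
Log2 fold changes (vertical axis) of the tested genes of the Ms4a cluster (shaded) and of 5 tested genes on each side, by distance of the gene midpoint from the cluster start in kb, filled where the FDR was under 0.05. Ms4a4c and AW112010 stood highest in Trex1-KO against WT, at 3.23 and 1.81.

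Genes whose log2 CPM followed the members most closely over the 8 libraries were then listed among 10650 genes outside the family. These correlations are descriptions: the libraries share 4 groups, and no p is given. For Ms4a4c, the member with the largest change, the 5 closest were Irf7 (Pearson's r = 0.997), the master regulator of type I interferon, Oasl1 (0.995), Ifi44 (0.994), H2-T23 (0.993), which encodes a non-classical MHC molecule, and Anxa4 (0.992), and 410 genes had an r over 0.9. For Ms4a7, the member with the most reads, they were Clic1 (0.987), Hsd17b11 (0.986), Ubxn8 (0.974), H2-M3 (0.973) and Scpep1 (0.972), and 146 genes had an r over 0.9. Among the members, Ms4a4c correlated with Ms4a6d at 0.945, Ms4a6b at 0.943, Ms4a7 at 0.876, Ms4a4b at 0.858 and Ms4a6c at 0.810, but with Ms4a4a at -0.356.

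**Figure D5:**
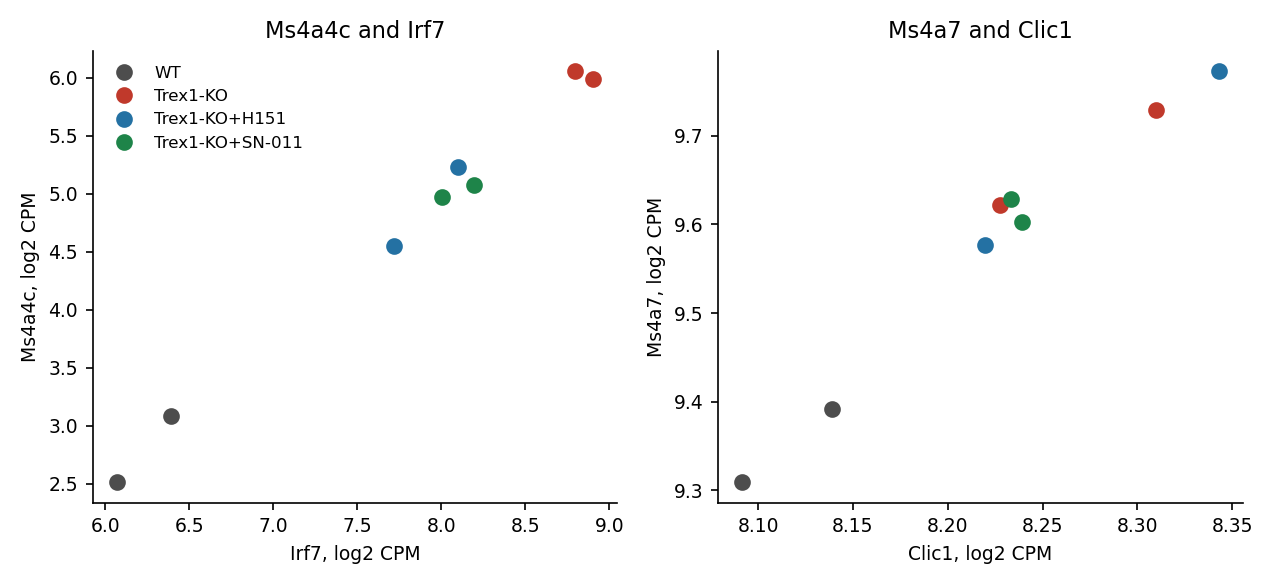
Log2 CPM of Ms4a4c against Irf7 (left) and of Ms4a7 against Clic1 (right), 1 point per library, coloured by group. On the left the WT libraries lie lowest, the Trex1-KO libraries highest and the antagonist libraries between them.

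Further lists place the members beside interferon-stimulated genes, genes for partners of MS4A proteins and genes of alternative activation. Of 20 interferon-stimulated genes, all 20 were higher in Trex1-KO than in WT, beside 9.27% of all tested genes, with a median log2 fold change of 2.17. All 20 were lower with H151 (median -1.34) and 19 with SN-011 (median -1.12), beside 1.84% and 2.22% of all tested genes. The largest changes in Trex1-KO cells were those of Ifi44 (3.92), Ifi205 (2.67) and Usp18 (2.63), so the log2 fold change of Ms4a4c, 3.23, lay among them, while those of the other members lay at 1.21 or below.

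Of 8 genes for partners of MS4A proteins, 7 were tested, and 3 were higher in Trex1-KO than in WT, beside 9.27% of all tested genes. These were Clec7a, which encodes dectin-1 (log2 fold change 0.43, edgeR FDR = 0.00023), Trem2, a lipid-sensing receptor of macrophages (0.27, edgeR FDR = 0.00089), and Fcer1g, the common Fc receptor gamma chain (0.25, edgeR FDR = 0.0186). No partner passed the test with H151 or SN-011 under edgeR. Syk, the kinase downstream of these receptors, had a log2 fold change of 0.12 (edgeR FDR = 0.19) and the adaptor Tyrobp one of 0.11 (edgeR FDR = 0.42).

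Because Ms4a4a and Ms4a8a are associated with alternative activation of macrophages, 10 genes of that state were examined. Of the 8 tested, 3 were higher and 2 lower in Trex1-KO than in WT, beside 9.27% and 7.11% of all tested genes. The higher ones were the chitinase-like Chil3, the folate receptor gene Folr2 (log2 fold change 1.40) and the cytokine gene Il10 (1.28), and the lower ones were the lectin gene Clec10a (-0.53) and the scavenger receptor gene Stab1 (-0.38). WT cells gave 0 and 14 counts for Chil3, and Trex1-KO cells 85 and 105, so the size of its change rests on WT replicate 2. With H151, Clec10a was lower (-0.39, edgeR FDR = 0.0471) and Stab1 higher (0.23, edgeR FDR = 0.0381) than in untreated Trex1-KO cells, both near the threshold. With SN-011 neither passed the test, with log2 fold changes of -0.19 for Clec10a (edgeR FDR = 0.44) and 0.12 for Stab1 (edgeR FDR = 0.37). The mannose receptor gene Mrc1 was at 978 CPM in WT and 1001 in Trex1-KO and did not pass the test. Mgl2 and Cd163 were not called either. Mgl2 had 24 and 18 counts in WT and 6 and 8 in Trex1-KO, and Cd163 had 777 and 912 and then 968 and 999.

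Markers of other cells moved with the genotype, as did the MS4A members. In bulk cells, fewer cells of a type and less RNA per cell cannot be told apart. The counts of markers called in Trex1-KO against WT stand beside 9.27% of all tested genes called higher and 7.11% called lower. The summed level of 8 macrophage markers was 30300 to 32360 CPM in WT and 30970 to 32030 in Trex1-KO. Lyz2 held most of it, and the other 7 summed to 9284 and 9205 CPM in WT and 10140 and 10260 in Trex1-KO. Of the 8, 3 were called higher, among them Fcgr1 (log2 fold change 1.14). Of 8 neutrophil markers, 5 were tested and all 5 were higher in Trex1-KO, with a summed level of 8.68 to 9.64 CPM in WT and 64.5 to 84.9 in Trex1-KO. Of 6 monocyte markers, Ly6c2, Plac8 and Ccr2 were higher and F13a1 was lower, and the median log2 fold change was 1.61. Their sum was 410 to 421 CPM in WT and 258 to 264 in Trex1-KO, of which F13a1 held 371 to 376 and 149 to 160. The sum of the other 5 was 44.3 and 38.8 CPM in WT and 108 and 104 in Trex1-KO, of which Ccr2 held 20.3 and 17.3 and then 78.4 and 76.3, and Vcan 21.8 and 18.8 and then 17.13 and 14.97 (edgeR FDR = 0.081). Of 8 stromal markers, 7 were tested and 6 were lower, and their sum went from 2329 to 2572 CPM in WT to between 937 and 1135 in Trex1-KO. In neither antagonist comparison was any neutrophil, monocyte or stromal marker called, whereas the macrophage marker Fcgr1 was lower with both H151 (-0.50, edgeR FDR = 0.0026) and SN-011 (-0.49, edgeR FDR = 0.0029). Of 8 T cell markers only Cd4 passed the filter and was lower in Trex1-KO (-0.68, edgeR FDR = 0.00033), and of 6 NK cell markers none did, with a summed level of at most 0.791 CPM. Of 7 dendritic cell markers, Xcr1 and Clec9a were higher in Trex1-KO, with 15 to 26 counts there and 1 to 5 in WT. The only other tested dendritic cell marker, Zbtb46, had 26 and 14 counts in WT and 8 and 8 in Trex1-KO and did not pass (edgeR FDR = 0.095). Of 6 B cell markers, 2 were tested and Ebf1 was lower, while Cd79b, at 1.69 and 2.51 CPM in WT and 3.17 in both Trex1-KO libraries, did not pass (edgeR FDR = 0.26). Of 6 mast cell and basophil markers, 2 were tested and neither was called. The part of these cells in the differences of the MS4A members was not tested.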

How the data were processed

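RNA-Seq was measured in 8 BMDM libraries, 2 per group, grouped by their titles. The authors deposited raw counts of read pairs per Ensembl gene without normalization. The processing notes name HISAT2, HTSeq and mm10 and the methods name featureCounts, so the counting tool is not settled, and the labels and methods name different sequencers. Symbols and positions were taken from GENCODE M21 (54495 of 54532 identifiers matched). Counts above 0 were seen for 3 of 492 genes lying within exons of the opposite strand and for 25 of 752 on the same strand, so reads that fit more than 1 gene were left out and strand was not used.

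In R 4.3.3, edgeR 4.0.16 filterByExpr (minimum count 10, total 15) kept 14591 genes. A quasi-likelihood fit over all 8 libraries with TMM scaling, without a replicate term, gave two-sided F-tests. P-values were adjusted by Benjamini-Hochberg across the 14591 genes, and genes with an FDR under 0.05 are called. The common biological coefficient of variation was 0.0656. SEs were obtained by dividing the log2 fold change by the root of F. Alternatives were other scalings and filters, a replicate block, 2 groups only, edgeR's exact test, DESeq2 1.42.0, a 2-fold minimum and leaving out each library. Floors of 3 counts cover counting error only, since reads without molecular identifiers are not independent molecules. Sequences were aligned with Biopython 1.88.

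All 8 members are named with their values, and other family genes where they passed the filter. Of further lists, counts and up to 3 called genes with the largest change are named, and other genes were chosen after their values were seen. The members, lists and tests were chosen with earlier results of these data known.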

Additional observations from a re-analysis of the deposited data

How the results depend on the processing

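With 2 libraries per group, several calls of small differences were lost when 1 library was left out. The differences themselves did not always move. For Ms4a6b with SN-011 against Trex1-KO, the log2 fold change was -0.36 without SN-011 replicate 1 and -0.38 without SN-011 replicate 2. In the main fit it was -0.37. When a 2-fold minimum was added, 2 members were called in Trex1-KO against WT and 1 in each of the other comparisons but SN-011 against H151, which had 0. With only the 2 groups fitted, 1 member was called for H151 against Trex1-KO. For SN-011 against H151, 1 member (Ms4a4a) was called without the low-count filter, with the replicate block and with the exact test. Leaving out 1 library gave 5 to 6 members called in Trex1-KO against WT, 1 to 3 with H151 and 0 to 3 with SN-011 against Trex1-KO, 0 in SN-011 against H151, and 3 to 4 with H151 and 2 to 5 with SN-011 against WT. Ms4a4c kept its direction and its call in all 16 alternatives for Trex1-KO against WT.

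Signs turned only among differences that were not called. For H151 against Trex1-KO, Ms4a7 was -0.0013 with DESeq2 size factors, -0.0014 without a filter and -0.0013 with DESeq2, and Ms4a14 was 0.018 with total counts alone. For H151 against WT, Ms4a4a was -0.031 with total counts alone. Leaving out 1 library gave ranges of log2 fold change that crossed 0. These were -0.32 to 0.021 for Ms4a4a in Trex1-KO against WT and -0.14 to 0.20 with H151 against WT. With H151 against Trex1-KO they were -0.099 to 0.033 for Ms4a6d, -0.10 to 0.098 for Ms4a7 and -0.085 to 0.069 for Ms4a14. With H151 against WT the range was -0.026 to 0.22 for Ms4a6c. For SN-011 against H151 they were -0.21 to 0.47 for Ms4a4c, -0.067 to 0.089 for Ms4a6b, -0.085 to 0.16 for Ms4a6c and -0.16 to 0.038 for Ms4a7. The cause was not tested.

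Treated libraries were titled as an untreated Trex1-KO library plus the agent, such as ko1+h151 and ko1+SN011 beside ko1. Such titles can be read as the same cells with an agent added, but the meaning of the number is not stated. Deviations of same-numbered libraries correlated at 0.06 between WT and Trex1-KO, 0.19 between Trex1-KO and H151 and -0.01 between Trex1-KO and SN-011. The value of 0.19 was the highest among all pairs of groups. The main fit did not pair the samples, and these correlations do not settle whether same-numbered libraries share cells. The replicate block moved the genes called from 2390 to 2611, from 325 to 412, from 340 to 436 and from 23 to 44 in Trex1-KO against WT, H151 and SN-011 against Trex1-KO, and SN-011 against H151. It added Ms4a4a for SN-011 against WT (FDR = 0.0028) and changed no other member's call apart from the Ms4a4a call above. Without the low-count filter these counts were 2738, 525, 679 and 266, with the exact test 2692, 377, 569 and 74, and with DESeq2 1838, 314, 320 and 38.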
